A study of Mus musculus with 12 samples.

Results

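The genes described here encode the proteins with which a heart muscle cell releases, stores, takes up and triggers calcium at its sarcoplasmic reticulum. They are 10 genes, taken by their symbols: Ryr2, Casq2, Trdn, Hrc, Jph2, Atp2a2, Pln, Cacna1c, Slc8a1 and Camk2d. The choice was made with earlier results of these data known. The count tables listed 21493 genes, of which 13158 had enough reads to be tested, and all 10 were among these.

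Each heartbeat begins when calcium enters through L-type channels in the T-tubules, which opens ryanodine receptors in the facing membrane of the sarcoplasmic reticulum and empties the calcium stored there. Relaxation follows when a calcium pump returns the ion to the store and the sodium-calcium exchanger carries the remainder out of the cell. The pump is held back by phospholamban, and kinases tune both release and uptake. Lower pump activity and altered release are well known in failing hearts, and desmin-null hearts develop cardiomyopathy.

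The RNA was poly-A RNA of adult cardiomyocytes (ACM), which had been freed from the heart with trypsin and collagenase and harvested at once. All mice were 3 months old. The mice either had desmin (Des+/+) or lacked the gene in every cell (Des-/-). Desmin is the intermediate filament protein of muscle. Per the study's methods, both genotypes carried the αMHC-GFP transgene in homozygous form, which marks cardiomyocytes through a cardiac myosin promoter, on a 129SV background. Mice of each genotype were studied without exercise (non-swim) or after swimming as an exercise stress (swim), which gave 4 groups of 3 libraries. Each library pooled the cells of several mice, so the errors below are those between pools.

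Between 4320819 and 12072443 reads were assigned to genes per library, and the lowest count of any of the 10 genes in any library was 227. Levels are given as CPM, the reads of a gene relative to all reads assigned to genes in its library, after TMM scaling. TMM adjusts library sizes by a trimmed mean of the ratios between libraries and does not remove differences in cell make-up. The targeted gene was at 973 to 3647 CPM in the 6 Des+/+ libraries and at 50.3 to 101 CPM in the 6 Des-/- libraries, so every library matched the genotype of its label. This does not check the swim part of the labels. Contractile genes, which define cardiomyocytes, were present in all libraries, but their summed level differed between groups. It was 67708 to 107880 CPM in Des+/+ non-swim, 36295 to 60523 in Des+/+ swim, 8440 to 32160 in Des-/- non-swim and 21690 to 34049 in Des-/- swim libraries. Replicate 3 of the Des-/- non-swim group stood apart, with 40752 CPM of 10 fibroblast genes against 9063 and 10163 in the other two, and with 4334 CPM of 10 macrophage genes against 418 and 692. Replicate 3 of the Des-/- swim group had 14202 CPM of the fibroblast genes against 4309 and 5058. In RNA from a cell suspension, fewer cardiomyocytes and less transcript per cardiomyocyte cannot be told apart.

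The sequence upstream of the start site was available for 8 of the 10 genes (RefSeq, assembly GRCm38.p6). Atp2a2 and Trdn had no entry. The windows of 250 bases before the start of 4 genes are printed here because they show how the bases and motifs before the start differ among genes that were lower together in the first comparison below. The genes shown and the motifs searched were chosen after the sequences had been seen. Capitals mark matches on either strand to any of 6 motifs. The TATA box was searched as TATAAA. The MEF2-type motif, named for a family of muscle transcription factors, was searched as CTAAAAAT. The motif of GATA factors was searched as GATAAG and the E-box of bHLH factors as CAGCTG. The CCAAT box was searched by the letters of its name, and the GC box as GGGCGG.

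Pln, plus strand, chr10:53337436-53337685: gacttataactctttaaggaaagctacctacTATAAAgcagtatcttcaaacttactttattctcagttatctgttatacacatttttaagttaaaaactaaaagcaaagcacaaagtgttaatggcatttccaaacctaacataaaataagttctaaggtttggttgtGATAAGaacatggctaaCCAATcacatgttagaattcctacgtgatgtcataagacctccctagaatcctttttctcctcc
Casq2, plus strand, chr3:102086165-102086414: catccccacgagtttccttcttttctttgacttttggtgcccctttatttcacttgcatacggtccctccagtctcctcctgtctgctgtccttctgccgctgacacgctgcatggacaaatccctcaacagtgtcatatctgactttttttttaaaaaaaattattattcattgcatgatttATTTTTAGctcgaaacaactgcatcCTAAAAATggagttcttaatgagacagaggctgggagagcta
Hrc, plus strand, chr7:45335019-45335268: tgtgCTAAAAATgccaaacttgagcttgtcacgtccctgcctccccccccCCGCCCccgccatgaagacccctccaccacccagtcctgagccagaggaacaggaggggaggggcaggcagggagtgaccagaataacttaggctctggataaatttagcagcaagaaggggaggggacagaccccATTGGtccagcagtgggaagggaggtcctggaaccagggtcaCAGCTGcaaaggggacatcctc
Slc8a1, minus strand, chr17:81738388-81738637: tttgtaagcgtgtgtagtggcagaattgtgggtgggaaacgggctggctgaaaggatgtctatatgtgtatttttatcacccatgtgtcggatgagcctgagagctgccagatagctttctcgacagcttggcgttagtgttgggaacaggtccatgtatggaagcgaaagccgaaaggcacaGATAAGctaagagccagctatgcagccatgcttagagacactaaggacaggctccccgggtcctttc

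Pln had the only TATAAA match among the 8 genes, a motif found in 12.4% of 32851 windows of the same length, and its window held 32.8% G or C against a median of 52.4%. CTAAAAAT was found in 1.01% of all windows and in Casq2 and Hrc, at 2 places in Casq2 with first bases 67 and 42 before the start. GATAAG, in 6.55% of all windows, was found in Pln and Slc8a1. CAGCTG occurred in Hrc and Jph2 against 13% of all windows. CCAAT was in 4 of the 8 genes and 33.8% of all windows, and GGGCGG in 4 genes and 32.7%. A gene counts here if any of its windows matches, and by window CCAAT and GGGCGG were each in 5 of 11. The palindromic MEF2 motif, in 3.2% of all windows, and the M-CAT motif CATTCC, in 12.6%, were in none of the windows of the 8 genes. The Camk2d window held 68.4% G or C and 3 GC boxes, and of the windows of Cacna1c the richest held 82.8%. These matches describe letters only, and binding was not measured here.

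The 10 genes lie on 8 chromosomes. Their transcribed spans in GRCm38 (GENCODE M21) range from 3685 bases for Hrc, on chromosome 7 from 45335290 to 45338974, to 609179 bases for Cacna1c, on chromosome 6 from 118587240 to 119196418. Ryr2 (ENSMUSG00000021313, chromosome 13, 11553102 to 12106945) has the most exon sequence, 28790 bases in 107 blocks. Pln (ENSMUSG00000038583, chromosome 10, 53337667 to 53345987) shares 1785 exonic bases with genes on the opposite strand, of which Cep85l was in the tables. Cep85l was at 39.4 to 116 CPM in the 12 libraries while Pln was at 370 to 6566 CPM, so few or no Pln reads were counted for it.

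Levels of different genes were compared as CPM per kilobase of exon. In Des+/+ non-swim libraries the pump gene Atp2a2 and its inhibitor Pln stood highest, at 2457 ± 397 and 2094 ± 253 (SD, n = 3), and their libraries overlapped. Hrc followed at 415 ± 48.2, Casq2 at 329 ± 29.2 and Jph2 at 158 ± 20.4, with no overlap between neighbours in this order. Ryr2 at 51.9 ± 11.5 and Trdn at 38.4 ± 3.75 overlapped, as did Slc8a1 at 20.99 ± 2.49 and Cacna1c at 15.7 ± 4.67. Camk2d was lowest at 6.75 ± 0.674. Within a library the highest of the 10 genes stood on average 363 times above the lowest, or 130 times when the longest transcript was used in place of all exons. By that length and the group means, Camk2d, with 22493 bases in all exons and 5524 in its longest transcript, was no longer the lowest, and Slc8a1 took that place. In Des-/- non-swim libraries Casq2 stood above Hrc and Trdn above Ryr2, but only Jph2 and Trdn were neighbours without overlap.

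The first question was how these genes differ between the genotypes without exercise. On the CPM scale all 10 were lower in Des-/- libraries at an edgeR adjusted p under 0.05, although 6 of them changed sign when libraries were scaled by contractile RNA as described below, while 18% of all tested genes were called lower and 32% in either direction. Their log2 changes ran from -2.76 for Pln to -1.02 for Camk2d with a median of -1.98, where the median of all genes was 0.04. For all 10 the libraries of the genotypes did not overlap, which was the case for 47.9% of all genes. All 12 contractile genes were also called lower, with a median log2 change of -1.94.

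Release from the store runs through Ryr2, the ryanodine receptor of the heart. It was measured at 1515, 1815 and 1155 CPM in Des+/+ non-swim libraries and at 202, 585 and 141 CPM in Des-/- non-swim libraries. The highest Des-/- library lay well below the lowest Des+/+ library. Ryr2 fell by 2.27 on the log2 scale (SE 0.45, edgeR adjusted p 0.00367).

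Casq2, the main calcium-binding protein inside the store, had 872, 989 and 836 CPM in Des+/+ and 233, 474 and 124 CPM in Des-/- libraries. It fell by 1.70 (SE 0.36, edgeR adjusted p 0.00544). Trdn, triadin, which anchors calsequestrin to the receptor, had 349, 398 and 330 CPM against 155, 160 and 106 CPM. Its log2 change of -1.35 (SE 0.22) had the smallest adjusted p of the 10 genes, 0.00137 by edgeR.

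Hrc encodes a histidine-rich calcium-binding protein of the store that also binds the pump. It had 999.8, 1208 and 988 CPM in Des+/+ and 215, 377 and 46.3 CPM in Des-/- libraries, a log2 change of -2.33 (SE 0.55, edgeR adjusted p 0.00919). Replicate 3, the library with most fibroblast RNA, was the lowest. Jph2, junctophilin, which holds the T-tubule against the store, had 584, 757 and 672 CPM against 154, 292 and 91.8 CPM and fell by 1.91 (SE 0.34, edgeR adjusted p 0.00233).

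Uptake depends on Atp2a2, which encodes the SERCA2 pump and had the most reads of the 10 genes. It was at 14372, 17586 and 12858 CPM in Des+/+ non-swim libraries and at 1836, 6152 and 931 CPM in Des-/- non-swim libraries. Replicate 2 lay far above the other two Des-/- libraries, yet below every Des+/+ library. Atp2a2 fell by 2.33 (SE 0.60, edgeR adjusted p 0.013), the largest adjusted p of the 10. Fitted on the 6 non-swim libraries alone it was the only gene of the 10 not called, at an adjusted p of 0.0571 by edgeR.

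Pln, phospholamban, had 5235, 6566 and 5530.2 CPM in Des+/+ and 715, 1479 and 370 CPM in Des-/- libraries. This was the largest decrease of the 10 genes, 2.76 on the log2 scale (SE 0.48, edgeR adjusted p 0.00191), and only 0.57% of all tested genes had a lower log2 change. The mean of the Des-/- libraries was 14.8% of that in Des+/+ libraries for Pln and 19.9% for Atp2a2.

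Calcium entry was represented by Cacna1c, the pore of the L-type channel. Its libraries read 281, 447 and 271 CPM in Des+/+ and 54.1, 142 and 45.9 CPM in Des-/- mice, and it fell by 2.05 (SE 0.40, edgeR adjusted p 0.00373). Extrusion was represented by Slc8a1, the sodium-calcium exchanger NCX1, with 441, 396 and 347 CPM against 94.1, 209 and 142 CPM. Slc8a1 fell by 1.41 (SE 0.26, edgeR adjusted p 0.00256).

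Camk2d, the main calmodulin-dependent kinase of the heart, which phosphorylates both the receptor and phospholamban, moved least. It had 141, 169 and 145 CPM in Des+/+ and 64.0, 91.5 and 69.4 CPM in Des-/- libraries, a log2 change of -1.02 (SE 0.18, edgeR adjusted p 0.00208). Its Des-/- libraries had a coefficient of variation of 19.5%, against 77.7% for Hrc and 93.9% for Atp2a2.

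**Figure D1:**
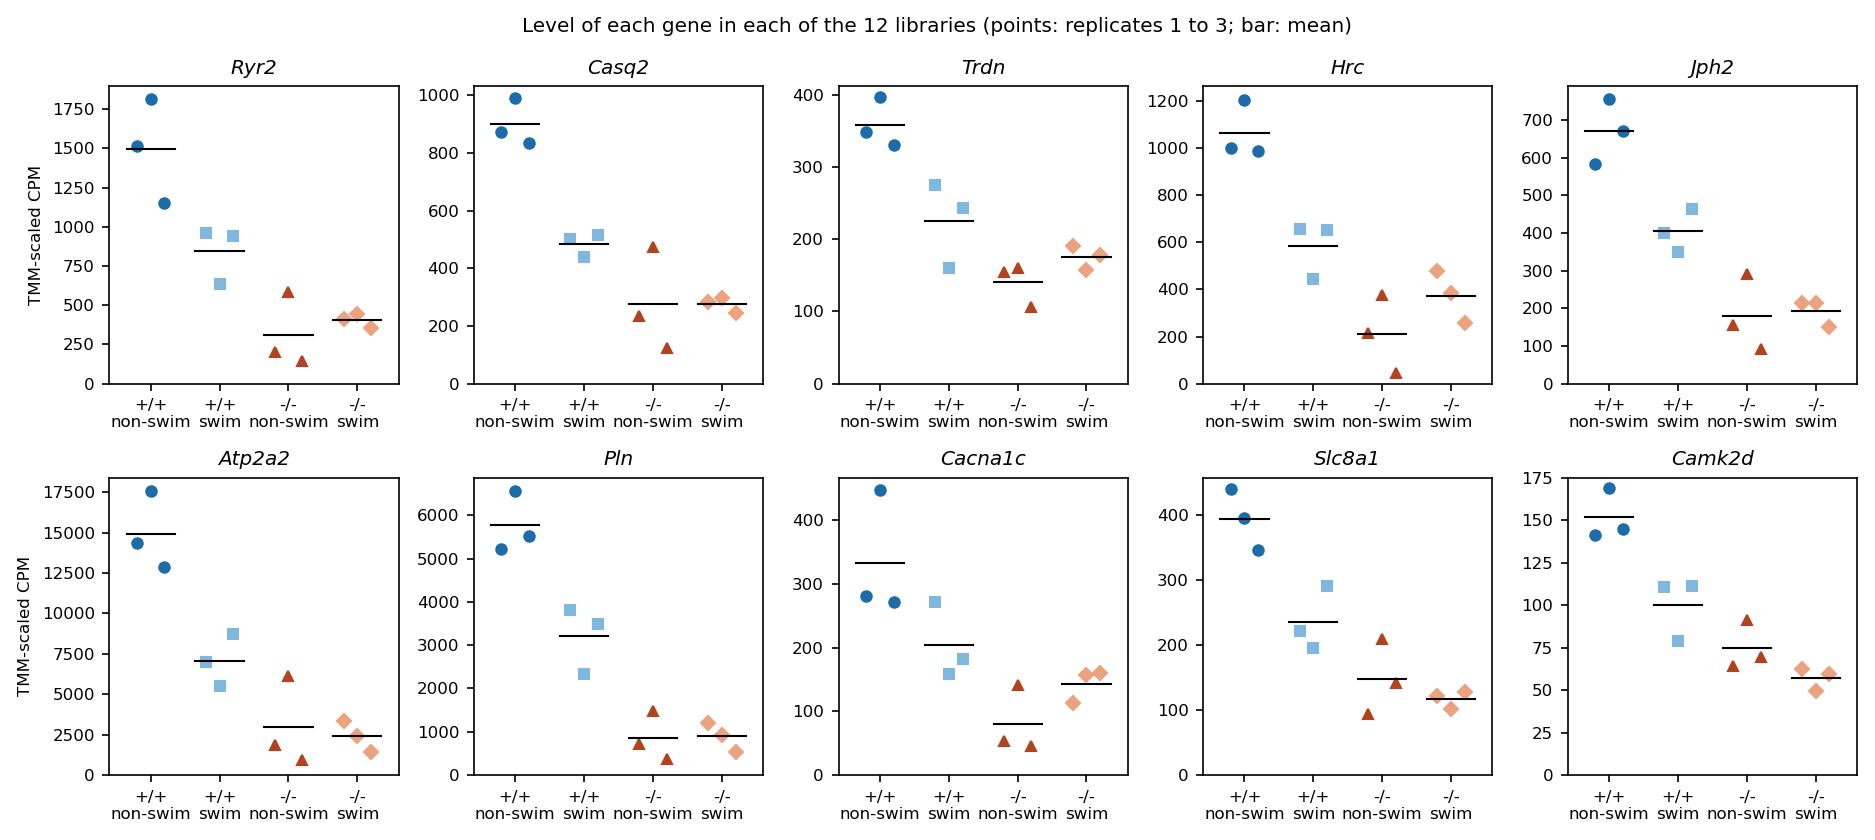
TMM-scaled CPM (vertical axis, from 0) of each of the 10 genes in the 12 libraries, by group along the horizontal axis; points are replicates 1 to 3 from left to right and bars are group means. In every panel the 3 Des+/+ non-swim libraries lie above all 3 Des-/- non-swim libraries, and replicate 2 is the highest Des-/- non-swim library for all 10 genes.

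Within the Des-/- non-swim group, replicate 2 was the highest library for all 10 genes and replicate 3 the lowest for 8 of them. The summed level of the 10 genes was 3722, 9962 and 2066 CPM in replicates 1 to 3, and that of the contractile genes 17971, 32160 and 8440 CPM. With any single library left out, all 10 genes stayed called lower. The value that moved most was that of Atp2a2, whose log2 change was -3.44 without replicate 2 and -1.91 without replicate 3, both of Des-/- non-swim mice. For Ryr2 the same 2 fits gave -3.13 and -1.93 and for Hrc -3.03 and -1.85. Without both Des-/- libraries numbered 3, a choice made after the data were seen, all 10 were called, between -2.32 for Pln and -0.89 for Camk2d.

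**Figure D2:**
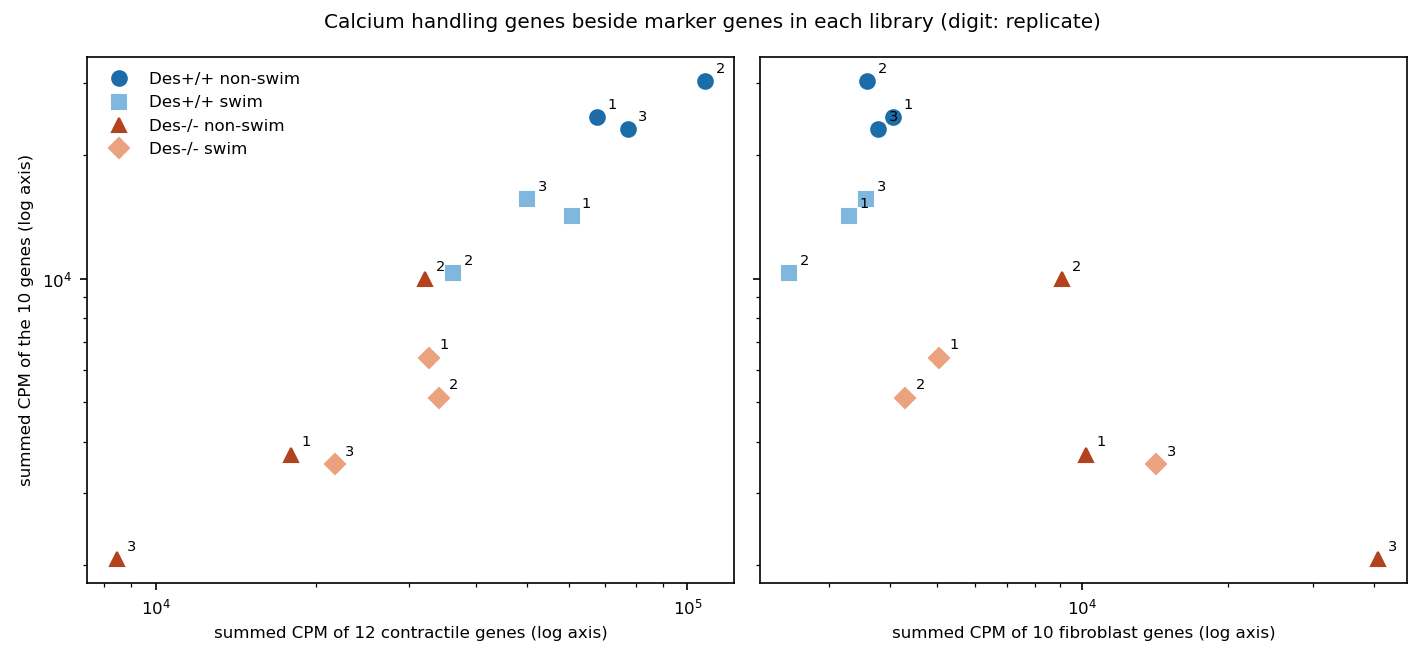
Summed CPM of the 10 genes (vertical, log axis) against the summed CPM of 12 contractile genes (left) and of 10 fibroblast genes (right, log axes) in each library; colours and shapes mark groups and digits the replicate. Libraries low in contractile RNA are low in the 10 genes, down to Des-/- non-swim replicate 3 with 8440 CPM of contractile and 2066 CPM of calcium handling RNA.

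Markers of the other cell types that such a suspension can hold moved as well. Of the fibroblast genes 10 of 10 and of the macrophage genes 9 of 10 were called higher in Des-/- non-swim libraries, as were 8 of 11 early-response and heat-shock genes that are known to react to cell isolation. No endothelial gene of 8 and no mural gene of 7 was called, and of 3 atrial genes tested 1 was called lower. The summed fibroblast level was 3596 to 4060 CPM in Des+/+ non-swim, 2479 to 3578 in Des+/+ swim, 9063 to 40752 in Des-/- non-swim and 4309 to 14202 in Des-/- swim libraries. The share of reads in no annotated feature was 34.0 to 39.3% in Des+/+ non-swim and 34.2 to 52.3% in Des-/- non-swim libraries. What part the cell make-up or this share had in the values of the 10 genes was not tested beyond the contractile scale that follows.

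Since the contractile genes moved with the calcium genes, each gene was also set against them within its library. Per 1000 reads of the 12 contractile genes, the median of the 10 genes differed between the genotypes by a log2 of 0.16 without swimming, less than the spread of 0.24 between replicates. That spread is the SD of single libraries within groups, and not the error of a difference between group means. Leaving out Des-/- non-swim replicate 3 gave a median of 0.012, and leaving out replicate 1 gave 0.31, above that spread. The genes did not move alike on this scale. Pln was at 77.3, 60.9 and 71.6 reads per 1000 contractile reads in Des+/+ non-swim libraries and at 39.8, 46.0 and 43.8 in Des-/- non-swim libraries, which did not overlap. Camk2d went the other way, with 2.09, 1.57 and 1.88 reads against 3.56, 2.85 and 8.22. Trdn had 5.15, 3.69 and 4.28 reads against 8.62, 4.99 and 12.6, and its groups overlapped only at 4.99 and 5.15. Ryr2, at 22.4, 16.8 and 14.9 against 11.2, 18.2 and 16.7 reads, overlapped throughout.

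With libraries scaled by the contractile genes in the edgeR fit, the median of all genes moved to a log2 change of 2.50, and 92% of all genes were called, 91.7% of all genes as higher. Of the 10 genes, Camk2d and Trdn were then called higher, at a log2 change of 1.40 (SE 0.47, edgeR adjusted p 0.00887) and 1.00 (SE 0.44, edgeR adjusted p 0.0396), and none was called lower. Pln had the lowest value on this scale, -0.69 (SE 0.36, edgeR adjusted p 0.0755). Relative to contractile RNA, Ryr2, Atp2a2, Pln and Hrc had values below 0 and the other 6 genes values above 0, of which those of Camk2d and Trdn passed the test.

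**Figure D3:**
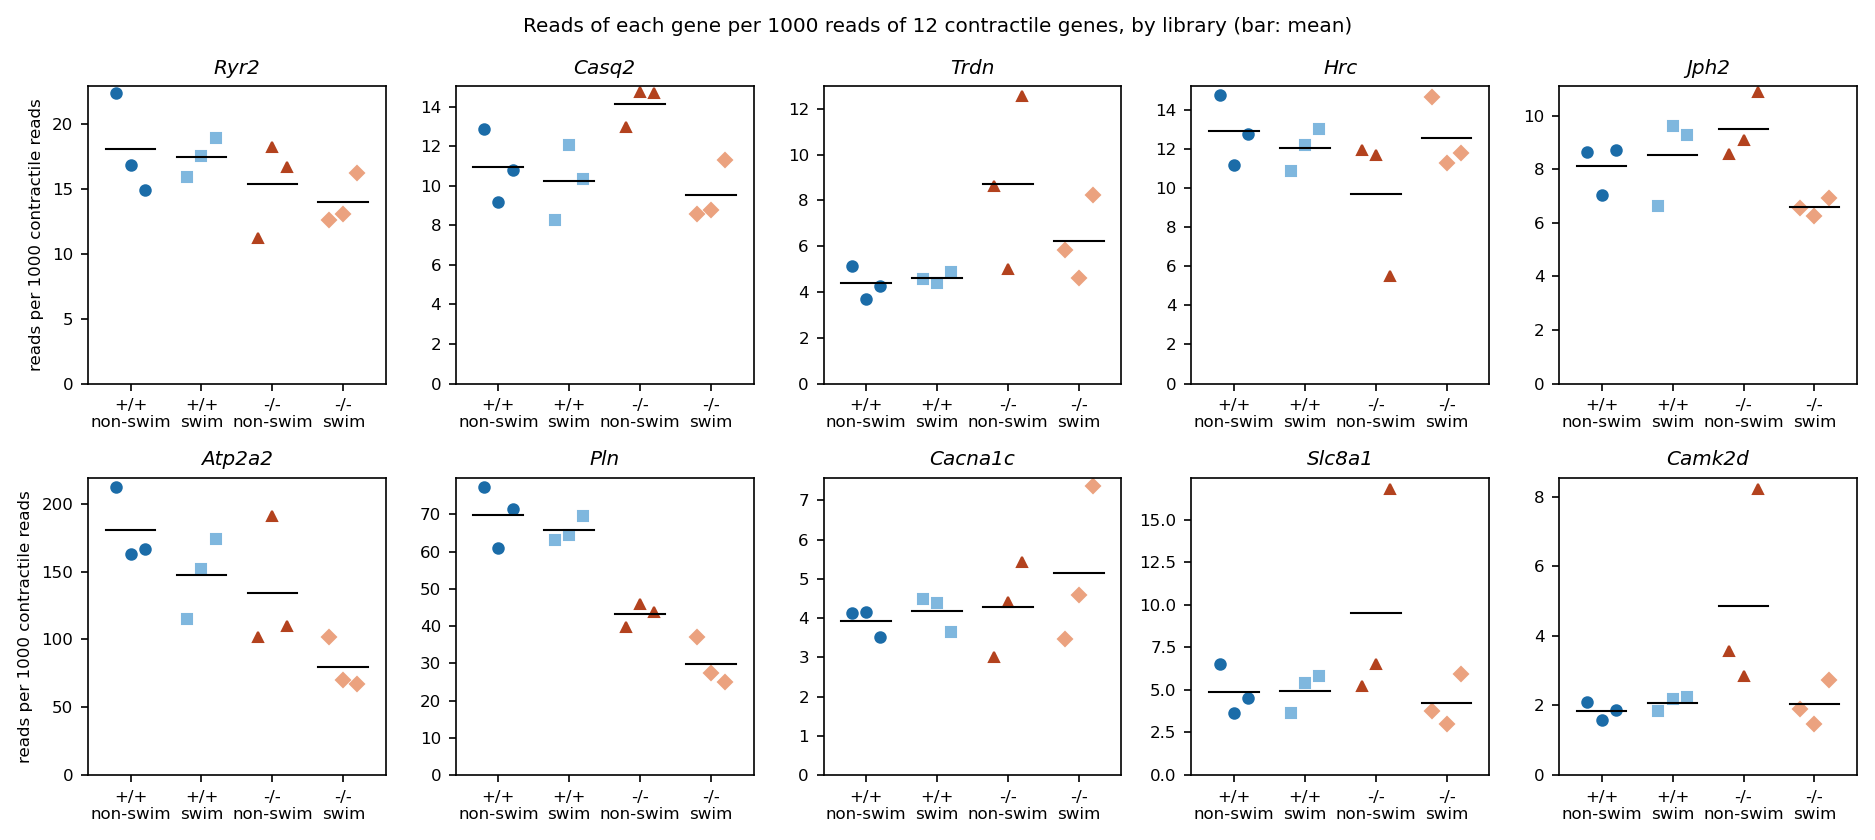
Reads of each gene per 1000 reads of the 12 contractile genes (vertical axis, from 0) by library and group; points are replicates 1 to 3 and bars group means. Pln is lower in all 6 Des-/- libraries than in all 6 Des+/+ libraries, and the highest values of Slc8a1, Camk2d and Trdn are those of Des-/- non-swim replicate 3.

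Pairs of partner genes were also compared within each library, as a description. The ratio of Pln to the pump it inhibits overlapped between the genotypes without swimming, with 36.4, 37.3 and 43.0 reads per 100 reads of Atp2a2 in Des+/+ and 38.9, 24.0 and 39.7 in Des-/- non-swim libraries. In swim libraries it was 54.6, 42.6 and 40.0 in Des+/+ and 36.5, 39.1 and 37.1 in Des-/- mice, with no overlap. Slc8a1, which competes with the pump for calcium, had 3.07, 2.25 and 2.70 reads per 100 reads of Atp2a2 in Des+/+ and 5.12, 3.41 and 15.2 in Des-/- non-swim libraries, with no overlap. Casq2 per 100 reads of Ryr2 was 57.6, 54.5 and 72.4 against 115, 80.9 and 88.0. The ratios of Slc8a1 to Atp2a2 and of Casq2 to Ryr2 were higher in all 3 Des-/- non-swim libraries. These are 3 of 6 ratios that were computed, picked after their values had been seen. Exact two-sided permutation tests on the log scale gave p 0.6 for Pln to Atp2a2, 0.1 for Slc8a1 to Atp2a2 and 0.1 for Casq2 to Ryr2 without swimming. After swimming these permutation tests between genotypes gave p 0.1, 0.1 and 0.3 in the same order. The smallest p that 3 libraries against 3 allow is 0.1, so no ratio could pass the threshold.

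The second question was how the genotypes differ once the mice had swum. On the CPM scale all 10 fitted values were again below 0, of which those of Cacna1c, Trdn and Hrc turned positive with contractile scaling, and only Pln, Slc8a1 and Camk2d passed the test, 3 of 10 against 5.57% of all genes called lower and 10.6% called in either direction. Of all genes 48.4% had a value below 0, and contractile scaling moved the median of all genes to 0.75. The median log2 change of the 10 was -0.91 and that of all genes 0.02. For 7 of the 10 the libraries of the genotypes did not overlap, against 35.9% of all genes. Other genes were called between the same groups. Of the 11 early-response and heat-shock genes 6 were called higher in Des-/- swim libraries (Fos, Fosb, Jun, Junb, Egr1 and Ier2). The heat-shock genes Hspa1a and Hspa1b went the other way, with means at 32.7% and 26.3% of those in Des+/+ swim libraries, but were not called. Called higher too were 2 of 10 fibroblast genes (Dpt and Fbln1), 1 of 10 macrophage genes (Cx3cr1) and 1 of 3 atrial genes (Myl7). No contractile gene of 12 was called, but all 12 had values below 0, with a median of -0.64. For 5 of these 12 the libraries of the genotypes did not overlap. The share of reads in no annotated feature was 45.9 to 50.4% in Des+/+ swim and 57.2 to 64.5% in Des-/- swim libraries. The part of these in the values of the 10 genes was not tested.

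Pln was at 3814, 2345 and 3482 CPM in Des+/+ swim libraries and at 1214, 935 and 540 CPM in Des-/- swim libraries. It fell by 1.84 (SE 0.46, edgeR adjusted p 0.0302). Slc8a1, with 222, 196 and 291 CPM against 122, 102 and 128 CPM, fell by 1.01 (SE 0.26, edgeR adjusted p 0.0331). Camk2d, with 111, 78.9 and 111 CPM against 62.4, 49.6 and 59.4 CPM, fell by 0.81 (SE 0.18, edgeR adjusted p 0.0217). In each of these 3 genes every Des-/- library was below every Des+/+ library. Each call rested on single libraries. None of the 3 was called without Des+/+ swim replicate 1, without Des+/+ swim replicate 3 or without Des-/- swim replicate 2, and of the 3 only Camk2d was called without Des-/- swim replicate 1 or 3, where the adjusted p of Pln by edgeR was 0.0538 and 0.0828.

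The other 7 genes missed the threshold. Atp2a2 had 6986, 5510.5 and 8716 CPM in Des+/+ and 3323, 2389 and 1455 CPM in Des-/- swim libraries, and its log2 change was -1.57 (95% interval -2.84 to -0.29, edgeR adjusted p 0.0981). Jph2, with 401, 349 and 464 CPM against 214, 213 and 150 CPM, was at -1.07 (-1.81 to -0.33, edgeR adjusted p 0.0614). Both were called by DESeq2, at an adjusted p of 0.023 and 0.0172, a tool that called 17.8% of all genes. Ryr2, at 963, 638 and 944 CPM against 413, 444 and 351 CPM, had a log2 change of -1.07 (-2.02 to -0.13) and Casq2 one of -0.82 (-1.60 to -0.04). For these 4 genes the libraries of both genotypes were apart, although the fit did not call them. Without Des-/- non-swim replicate 2, or without replicate 3 of that group, all 4 were called in this comparison, which does not use these libraries but shares their estimate of the spread. The share of all genes called in these fits is not given.

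Cacna1c, Trdn and Hrc overlapped between genotypes after swimming. Cacna1c had 271, 159 and 182 CPM in Des+/+ and 113, 157 and 160 CPM in Des-/- swim libraries, with a log2 change of -0.51 (95% interval -1.37 to 0.34). Trdn was at 275, 160 and 243 against 190, 157 and 179 CPM, a log2 change of -0.37 (-0.83 to 0.10). Hrc was at 658, 444 and 651 against 480, 384 and 256 CPM, a log2 change of -0.65 (-1.81 to 0.51). All 3 intervals include 0.

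**Figure D4:**
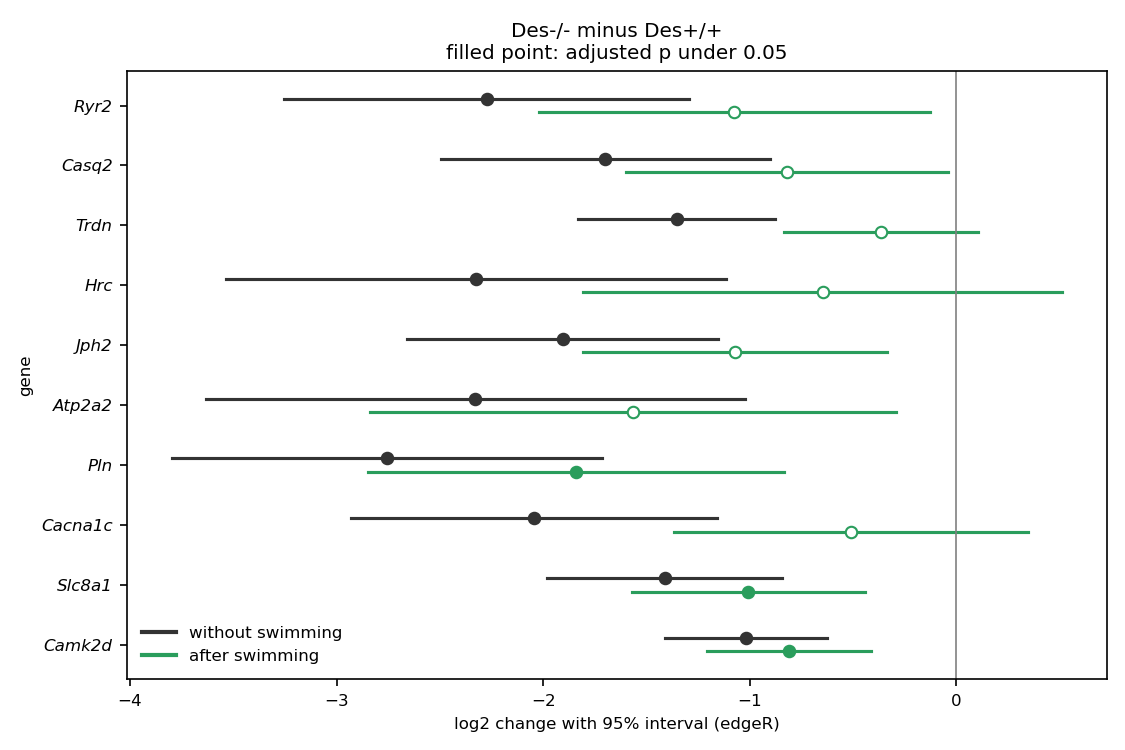
Log2 change in Des-/- against Des+/+ libraries (horizontal axis) for each gene, with its 95% interval as a line, without swimming (black) and after swimming (green); filled points passed an edgeR adjusted p of 0.05. All 10 points without swimming are filled and lie between -2.76 and -1.02, of which 6 change sign with contractile scaling, and after swimming only those of Pln, Slc8a1 and Camk2d are filled. Without swimming that scaling moved the median of all genes to 2.50.

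On the scale of contractile RNA the median of the 10 genes differed by a log2 of -0.18 between genotypes after swimming. Leaving out Des-/- swim replicate 3 gave -0.35 and leaving out replicate 2 gave -0.042, and the median was -0.35 against Actn2, Tnnt2 and Tpm1 alone. Pln was again lower in every Des-/- library, with 37.1, 27.5 and 24.9 reads per 1000 contractile reads against 63.0, 64.6 and 69.7. Atp2a2 had 102, 70.2 and 67.1 reads against 115, 152 and 174 and did not overlap either. With contractile scaling the log2 change of Pln was -1.14 (SE 0.37, edgeR adjusted p 0.12) and that of Atp2a2 -0.89 (SE 0.38, edgeR adjusted p 0.187), and none of the 10 was called, as was the case for all but 0.0304% of genes. Camk2d, called lower on the CPM scale, was at 1.91, 1.46 and 2.74 reads against 1.83, 2.17 and 2.23.

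The comparison of swim with non-swim libraries asked what the exercise changed. In Des+/+ mice the fitted values of the 10 genes on the CPM scale were all below 0, from -1.08 for Atp2a2 to -0.60 for Camk2d, and 5 of them turned positive with contractile scaling. They had a median of -0.78, where that of all genes was -0.08 and 58% of all genes were below 0. Contractile scaling moved the median of all genes to 0.71. No gene of the 10 was called by edgeR, as for all but 0.0912% of all tested genes. At an unadjusted p under 0.05, 4 of the 10 were lower, Casq2, Slc8a1, Camk2d and Trdn, against 12% of all genes. For all 10 the libraries of the 2 groups did not overlap, which was the case for 31.3% of all genes.

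Casq2 went from 872, 989 and 836 CPM to 501, 438 and 516 CPM, a log2 change of -0.89 (95% interval -1.67 to -0.11, edgeR adjusted p 0.196). Slc8a1 went from 441, 396 and 347 to 222, 196 and 291 CPM, a log2 change of -0.74 (-1.30 to -0.18, edgeR adjusted p 0.15). Camk2d, at -0.60 (-0.99 to -0.21, edgeR adjusted p 0.121), was called by DESeq2 at an adjusted p of 0.0488, a tool that called 5.71% of all genes in this comparison. For Atp2a2, which had the lowest value, the interval was -2.34 to 0.18. The share of reads in no annotated feature, a sign of library make-up, was 34.0 to 39.3% in Des+/+ non-swim and 45.9 to 50.4% in Des+/+ swim libraries, and its part in these values was not tested. Per 1000 contractile reads the 10 genes differed by a median log2 of 0.00 between the same groups, and with contractile scaling the values ran from -0.29 for Atp2a2 to 0.17 for Camk2d.

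In Des-/- mice the genes went in both directions after swimming. None was called by edgeR, where 0.0228% of all genes were, none had an unadjusted p under 0.05, against 16.7% of all genes, and 6 of the 10 lay above 0, as did 48.5% of all genes, although with contractile scaling only Cacna1c and Hrc did. That scaling moved the median of all genes to a log2 change of -0.95. Camk2d was the only gene whose libraries did not overlap, going from 64.0, 91.5 and 69.4 to 62.4, 49.6 and 59.4 CPM with a log2 change of -0.39 (95% interval -0.78 to 0.01). Of all genes, 19.4% had no overlap. Cacna1c went from 54.1, 142 and 45.9 to 113, 157 and 160 CPM, a log2 change of 0.83 (-0.03 to 1.69), and Hrc from 215, 377 and 46.3 to 480, 384 and 256 CPM, a log2 change of 0.81 (-0.35 to 1.98). From each Des-/- non-swim library to the swim library of the same number, Cacna1c and Hrc were higher in 3 of 3 pairs and Camk2d lower in 3 of 3. The rest of the 10 genes went in both directions across these pairs. The labels do not say that same-numbered libraries were made together. How many of all genes moved alike in all pairs was not counted, so this describes single genes only. With the replicate number as a block none of the 10 was called either, with log2 changes of 0.95 for Cacna1c (edgeR adjusted p 0.256), 0.96 for Hrc (edgeR adjusted p 0.36) and -0.39 for Camk2d (edgeR adjusted p 0.33). Pln, at 0.07 (-0.91 to 1.04), and Casq2, at -0.01 (-0.79 to 0.77), were the values nearest to 0, with intervals that leave room for change in either direction. The contractile genes had a median log2 change of 0.66 here and the 10 fibroblast genes one of -0.93. Relative to contractile reads within each library, the median of the 10 genes differed by a log2 of -0.54 between the same groups. This was more than the SD of 0.24 between single libraries within groups, which is no test of the difference. The median difference stayed between -0.60 and -0.48 with any single library left out. Cacna1c, at 0.23, and Hrc, at 0.45, went the other way on this scale.

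**Figure D5:**
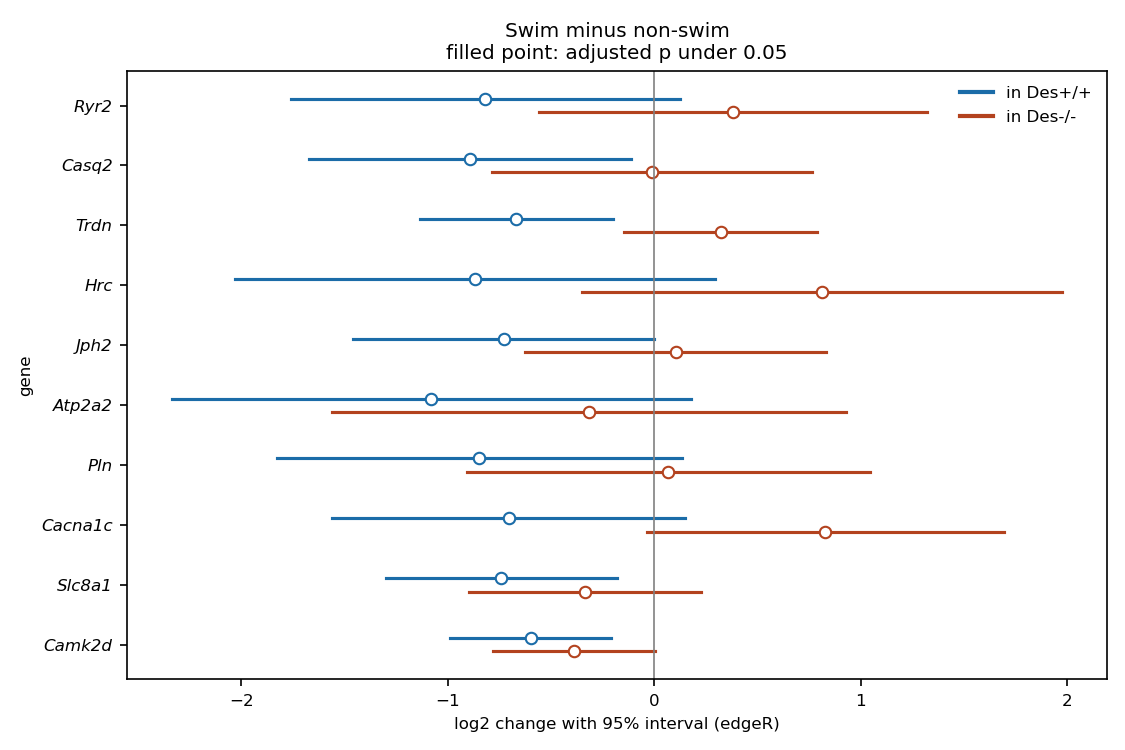
Log2 change in swim against non-swim libraries (horizontal axis) with 95% intervals as lines, in Des+/+ (blue) and Des-/- (red-brown); all points are open because none passed an edgeR adjusted p of 0.05. The Des+/+ values lie between -1.08 and -0.60, of which 5 turn positive with contractile scaling, and 6 of the 10 Des-/- values lie above 0, of which only those of Cacna1c and Hrc stay there on that scale. On that scale the median of all genes was 0.71 in Des+/+ and -0.95 in Des-/-.

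The last test was of the interaction, that is, the change with swimming in Des-/- mice minus the same change in Des+/+ mice. On the CPM scale it was above 0 for all 10 genes, from 0.21 for Camk2d to 1.68 for Hrc, and for 52.6% of all genes, but with contractile scaling only Cacna1c and Hrc kept that sign. That scaling moved the median interaction of all genes to -1.70. No gene of the 10 was called by edgeR, and 0% of all tested genes were. At an unadjusted p under 0.05, 3 of the 10 were above 0, Cacna1c at 1.53 (95% interval 0.32 to 2.75), Trdn at 0.99 (0.33 to 1.65) and Hrc at 1.68 (0.03 to 3.32), against 10.1% of all genes in this direction. DESeq2 called none of the 10 and 1.73% of all genes. All 12 contractile genes were also above 0, with a median of 1.39, and relative to them the median of the 10 genes was -0.47. Since the genotype and swimming comparisons share libraries, they are not independent of each other.

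The other genes of the calcium pathway were taken from a list of 79, of which 76 were in the tables and 71 were tested. Without swimming 25 of the 71 were called lower and 7 higher in Des-/- libraries, with a median log2 change of -0.27, where 18% of all genes were called lower and 14% higher. All values of this list are on the CPM scale, on which all 12 contractile genes were called lower too, with a median of -1.94. Values of the 71 with contractile scaling are not given, so which falls would remain relative to contractile RNA was not tested. Of the genes around the release channel, Tmem38a, a counter-ion channel of the store, fell by 2.55 (edgeR adjusted p 0.00133) and Jph1, a relative of Jph2, by 2.36 (edgeR adjusted p 0.00363). Asph, which gives rise to the receptor partner junctin, fell by 1.06 and S100a1, a calcium-binding activator of release, by 1.42. Fkbp1b, the FKBP12.6 subunit that steadies the closed receptor, rose by 1.63 (95% interval 0.53 to 2.74, edgeR adjusted p 0.029), but from only 0.589, 1.75 and 0.992 CPM to 3.72, 2.83 and 3.85 CPM.

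Srl, sarcalumenin, a calcium-binding protein of the store, fell by 2.13 (edgeR adjusted p 0.00557). The channel subunits Cacnb2 and Cacna2d1, which help the L-type pore reach the membrane, fell by 1.94 and 1.62. Cacnb3, a subunit more typical of other tissues, rose by 0.99 and Bin1, which shapes T-tubules, by 1.30 (edgeR adjusted p 0.013 and 0.00091). Ppp1r3a, a targeting subunit of protein phosphatase 1, fell by 2.48 and the kinase Camk2a by 2.17. Mcub, a subunit that restrains the mitochondrial calcium uniporter, rose by 2.11, from 1.30, 1.17 and 0.902 CPM to 1.81, 2.15 and 10.6 CPM, where the last library is the replicate 3 with most fibroblast and macrophage RNA. Sln, sarcolipin, an atrial inhibitor of the pump, was at 1.53, 0.584 and 5.77 CPM in Des+/+ and 1.81, 0.113 and 0.70 CPM in Des-/- non-swim libraries, of which the 0.113 CPM lay under the limit of 3 counts per library, 0.262 to 0.656 CPM. It was at or under that limit in all 6 swim libraries.

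After swimming 10 of the 71 were called lower and none higher in Des-/- libraries, where 5.57% of all genes were called lower and 5.01% higher. These values too are on the CPM scale only, on which all 12 contractile genes lay below 0, with a median of -0.64. Among the called genes the lowest value was that of Jph1, which fell by 1.71 (edgeR adjusted p 0.0429), followed by Akap6, an anchor that brings protein kinase A to the receptor, which fell by 1.35 (edgeR adjusted p 0.028). Prkar1a, a regulatory subunit of that kinase, fell by 0.73 and Ppp1cb, a catalytic subunit of protein phosphatase 1, by 0.72. Asph fell by 0.58 (edgeR adjusted p 0.037). Tmem38a at -1.07, Srl at -1.11, Cacnb2 at -1.02, S100a1 at -0.57 and Cacna2d1 at -0.54 missed the threshold, as did Fkbp1b at 1.56 (95% interval 0.41 to 2.71, edgeR adjusted p 0.0755). This count too rested on single libraries, and was 0 without Des+/+ swim replicate 3. Neither the swimming comparisons nor the interaction gave a call among the 71 with edgeR.

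The 5 tested genes whose levels were most like the mean standardised log2 CPM of the 10 genes over the 12 libraries were Mylk3, the kinase of cardiac myosin light chain, Fbxo40, Tmem182, Oxnad1 and Gja3, with a Pearson r of 0.991 to 0.994. The libraries share group and cell make-up, so these values are a description. With the group means taken out, r was 0.941 to 0.978. Mylk3 was at 500, 645 and 542 CPM in Des+/+ non-swim and at 100, 220 and 63.9 CPM in Des-/- non-swim libraries and had a log2 change of -2.14 between them (edgeR adjusted p 0.00288). Among the 10 genes themselves, each against the mean of the other 9, r with group means taken out was highest for Ryr2, at 0.966, and lowest for Slc8a1, at 0.489. Slc8a1, Camk2d and Trdn, with 0.489, 0.673 and 0.689, followed the rest least.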

How the data were processed

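Single-end RNA sequencing of 12 libraries was deposited by the authors as raw read counts per gene, 1 table a library. Per the study's methods reads were aligned to GRCm38 (mm10) and counted with HTSeq in reverse-stranded mode. The submitters' processing notes name HISAT2 2.2.1, SAMtools 1.13 and DESeq2 1.40.2. The annotation release is not given in the sources used here, and labels and methods name different library kits. The 5 summary rows that name no gene, 52.4 to 78.8% of a table's sum, were left out.

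Groups came from the labels. Genes passing filterByExpr were tested with edgeR 4.0.16 (quasi-likelihood F test, TMM, 4 group means over all 12 libraries, Benjamini-Hochberg over 13158 genes, called under 0.05). SE is the log2 change divided by the square root of F, and intervals are 95%. Levels are TMM-scaled CPM computed here from the counts. Lengths came from GENCODE M21. Alternatives were other scalings, no filter, DESeq2 1.42.0, fits of 6 libraries, the study's filter (DESeq2 unadjusted p of at most 0.05, log2 change of at least 0.6 either way, mean count of at least 20), a replicate block and each library left out. The edgeR and DESeq2 fits were run on counts simulated from a mean shared by all libraries, with changes added to Des-/- non-swim libraries. This simulation held no difference in cell make-up and did not cover contractile scaling. A limit of 3 counts stands for a gene not detected, and it covers counting error only. P-values measure the spread between pools.

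The 10 genes and all lists were chosen with earlier results of these data known. The text names the 10 genes, Des, at most the 4 highest and 4 lowest called genes of the wider list per comparison, 8 named partners, and the 5 genes most like the 10. Labels do not say that same-numbered libraries were made together. Deviations from group means correlated at 0.36, 0.32 and 0.60 for the 3 same-numbered pairs of Des-/- non-swim and swim libraries. A fit with a replicate block takes these as paired, but its block spans all 12 libraries and joins same-numbered libraries of every group. The reported values are from the fit without it, and those with the block are an alternative. Each other comparison had at least 1 pair that correlated under 0.1, so these values give no ground for the block there.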

Additional observations from a re-analysis of the deposited data

How the results depend on the processing

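Without swimming, the 10 genes were all called lower with median-ratio or upper-quartile scaling, no filter, DESeq2, the replicate block, the study's filter, and without both Des-/- libraries numbered 3 (chosen after seeing the data). With only the 6 libraries compared 9 were called. Leaving out 1 library gave 10 to 10. Apart from the study's filter, the shares of all genes called in these fits are not given. Scaling by 12 contractile genes gave 2, both higher, and turned Casq2 to 0.37, Slc8a1 to 0.96, Cacna1c to 0.12, Camk2d to 1.40, Jph2 to 0.23 and Trdn to 1.00. Upper-quartile scaling moved the median of all genes from 0.04 to 0.14 here, with the 10 genes at a median of -1.87.

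After swimming the 3 calls became 0 with contractile scaling, 5 with DESeq2, 7 with the 6 libraries compared, 7 with the study's filter, and 0 to 7 without 1 library. The shares of all genes called are not given for the fits of 6 libraries or those without 1 library. Counts from these fits, here and for swimming in Des+/+, therefore cannot be set against all genes. Contractile scaling turned Cacna1c to 0.30, Trdn to 0.43 and Hrc to 0.064. For swimming in Des+/+ the 0 calls became 1 with DESeq2 (Camk2d), 1 with 6 libraries (Casq2) and 5 with the study's filter, and stayed 0 to 0 without 1 library. Contractile scaling gave Slc8a1 0.020, Cacna1c 0.085, Camk2d 0.17, Jph2 0.069 and Trdn 0.075. For swimming in Des-/- the study's filter passed 1 (Cacna1c, higher). Of all genes this filter passed 32% without and 18.4% after swimming between genotypes, 11.1% for swimming in Des+/+ and 9.42% in Des-/-. With contractile scaling Ryr2 was at -0.14, Pln at -0.53, Jph2 at -0.53 and Trdn at -0.49. Without both libraries numbered 3, Pln was at -0.017 and Jph2 at -0.048. Casq2, near 0, was at 0.0057 with median-ratio scaling and 0.0056 with DESeq2. Without 1 library, Atp2a2 ranged from -0.72 to 0.79, Pln from -0.28 to 0.72, Casq2 from -0.35 to 0.62 and Jph2 from -0.20 to 0.65. In the interaction contractile scaling gave Ryr2 -0.093, Atp2a2 -0.46, Pln -0.45, Casq2 -0.46, Slc8a1 -1.19, Camk2d -1.43, Jph2 -0.60 and Trdn -0.56. Between genotypes that scaling put the median of all genes at 2.50 without and 0.75 after swimming. It was 0.71 for swimming in Des+/+, -0.95 in Des-/- and -1.70 in the interaction.

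With the replicate number as a block, no call among the 10 genes changed, Casq2 with swimming in Des-/- was at 0.093, and the wider list after swimming had 6 calls in place of 10. That list had 5 with upper-quartile scaling, 17 with DESeq2 and 0 to 17 without 1 library, where without swimming it had 23 to 32. DESeq2 called 17.8% of all genes between genotypes after swimming, and for the other settings this share is not given. With swimming in Des+/+ the wider list had 0 calls by edgeR and 5 by DESeq2. The median against contractile RNA without swimming, 0.16, was -0.13 against Actn2, Tnnt2 and Tpm1 alone. Without 1 library it was 0.012 to 0.31, after swimming -0.35 to -0.042, for swimming in Des+/+ -0.11 to 0.11, for swimming in Des-/- -0.60 to -0.48 and for the interaction -0.57 to -0.36. The mean ratio of the highest to the lowest level per length within a library, 363, was 130 with the longest transcript. The causes of these differences were not tested.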
